A study of Mus musculus with 5 samples.

Results

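The genes analysed here encode the ephrin, Slit-Robo and netrin guidance systems of the mouse. They were chosen by symbol, with earlier results of these data known. The symbols were those of the Eph receptors, the ephrins, Robo1 to Robo4, Slit1 to Slit3, the netrins and netrin-Gs, the Unc5 receptors, *Dcc* and *Neo1*, which gave 41 of the 55411 genes in the count tables. These genes were measured by FACS-seq, that is RNA-seq of fluorescent neurons sorted from the main olfactory epithelium. Neurons that transcribe the odorant receptor gene *Olfr151* (also called M71) came from male mice homozygous for the Olfr151tm26Mom allele, in which these neurons also make GFP. The design compared neurons of mice exposed to acetophenone, an agonist of this receptor, with those of mice that received the solvent only.

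The control condition comprised pools 1, 2 and 3, from mice given DMSO alone for 5 h. The exposed condition comprised pools 1 and 3, from mice given 5% acetophenone in DMSO for 5 h, and exposed pool 2 was not analysed here. Mice of both conditions were 7 weeks old, carried the modified *Olfr151* on both copies, and were pooled by 4, so that the spread between pools is a spread between groups of mice and not between single animals. The labels give 200 sorted cells per pool in one field and 400 in another, and the paper states 200 for the *Olfr151* pools. The sort was made on GFP and on dyes for living nucleated cells. Libraries had 42780403 to 49527380 counts, of which spike-in RNAs took 0.249 to 0.631%, and 3 counts, the upper limit that a count of 0 allows, correspond to 0.0606 to 0.0701 CPM (counts scaled to the library total). The guidance genes together took 0.118, 0.144 and 0.130% of gene counts in controls (always given in the order of pools 1, 2 and 3), against 0.0924 and 0.126% in exposed neurons (pools 1 and 3).

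Ephrins are membrane-bound ligands of the Eph receptor tyrosine kinases, A-class ephrins being held by a lipid anchor and B-class ephrins by a transmembrane segment, and cells that carry both can signal in either direction on contact. Slits are secreted proteins that repel axons through Robo receptors, while netrins attract axons through Dcc and neogenin and repel them through Unc5 receptors. In the olfactory system, each sensory neuron sends a single axon to the olfactory bulb, where axons of neurons with the same receptor converge on the same glomeruli, and ephrin-A with EphA levels as well as Slit with Robo gradients are known to take part in this sorting.

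After acetophenone, transcripts of the ligands *Efna3* and *Efna5* fell by 4.52-fold and 3.08-fold, while those of the receptor *Epha7* rose by 2.95-fold. No Robo, Slit or netrin receptor transcript passed the test. Of the 41 genes, 11 were tested and 30 were not, the filter being a minimum of 142 counts in all libraries of either condition. P-values came from edgeR's quasi-likelihood test and were adjusted over 10035 genes by the Benjamini-Hochberg method, and a gene was called when its adjusted p-value was under 0.1 and its absolute log2 fold change above 0.5. With this rule 3 of the 11 tested genes were called, 1 higher and 2 lower, while over all tested genes 5.26% were called, 3.41% higher and 1.85% lower. The median log2 fold change of the 11 genes was -0.09, against -0.026 for all tested genes, with 4 positive and 7 negative values. In 5 of the 11 genes the groups did not overlap, the exposed pair being above all controls in 1 and below them in 4. Over all tested genes the groups did not overlap in 40.0%, with 20.3% above and 19.6% below. *Efna2* passed the filter only through its control libraries, so these counts describe the genes that passed and not the whole set of 41. When libraries were scaled by the spike-in RNAs instead, none of the 3 was called, with edgeR quasi-likelihood adjusted p-values of 0.156 for *Efna3*, 0.523 for *Efna5* and 0.695 for *Epha7* and log2 fold changes of -2.39, -1.84 and 1.49.

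**Figure D1:**
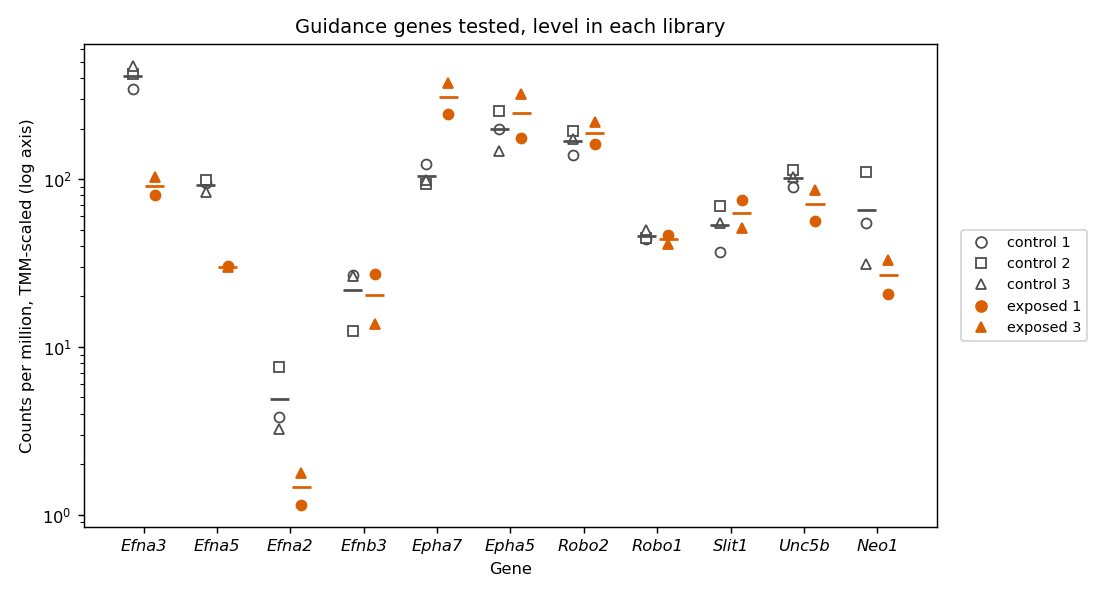
Level of the 11 tested guidance genes in each library, as TMM-scaled CPM on a log axis. Open grey marks are control pools 1, 2 and 3, filled orange marks are exposed pools 1 and 3, and each bar is the mean of a condition. Exposed libraries lie below all controls for *Efna3*, *Efna5*, *Efna2* and *Unc5b*, above all controls for *Epha7*, and the conditions overlap for the other 6 genes.

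Among the 11 tested genes, the one with the largest absolute log2 fold change, *Efna3* (ENSMUSG00000028039), encodes ephrin-A3 and lies on chromosome 3 from 89313899 to 89322965 on the minus strand of GRCm38. Its counts were 14923, 21019 and 21868 in controls against 3425 and 4308 in exposed neurons. In TMM-scaled CPM, these are 343, 426 and 473 in controls against 79.9 and 103 in exposed neurons. The exposed pair lies far below the lowest control. The log2 fold change was -2.18 (SE 0.21, 95% confidence interval -2.68 to -1.68, edgeR quasi-likelihood adjusted p-value 0.00512). In pooled neurons, a lower level in each cell and fewer cells with the transcript cannot be told apart.

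*Efna5* (ENSMUSG00000048915, chromosome 17 from 62604184 to 62881317, minus strand) encodes ephrin-A5, which has been studied for its role in glomerular targeting of olfactory axons. Its counts were 4131, 4863 and 3900 in the controls against 1302 and 1245 in the exposed libraries, or 94.99, 98.5 and 84.4 CPM against 30.4 and 29.8 CPM. Both exposed values are alike, and lie below every control. The log2 fold change was -1.62 (SE 0.21, 95% confidence interval -2.12 to -1.13, edgeR quasi-likelihood adjusted p-value 0.0128). Without exposed pool 1 the gene was not called (adjusted p-value 0.127).

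*Epha7* (ENSMUSG00000028289, chromosome 4 from 28813131 to 28967499, plus strand), which encodes an EphA receptor able to bind A-class ephrins, went the other way. Its counts were 5341, 4591 and 4542 in controls and 10520 and 15577 in exposed neurons, or 123, 93.0 and 98.2 CPM against 245 and 373 CPM. Both exposed libraries stand above every control, and exposed pool 3 is the higher of the pair. The log2 fold change was 1.56 (SE 0.22, 95% confidence interval 1.03 to 2.09, edgeR quasi-likelihood adjusted p-value 0.0187). *Epha5*, the other EphA receptor tested, had 198, 254 and 147 CPM in controls against 175 and 319.7 CPM in exposed neurons, and its log2 fold change of 0.31 (SE 0.32, interval -0.46 to 1.08) did not pass (edgeR quasi-likelihood adjusted p-value 0.653).

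The promoter windows are shown for the guidance genes that were called. They come from RefSeq on GRCm38.p6 and run from 250 bases before to 50 bases after the first start site, 5′ to 3′ on the strand of the gene. Windows were found for 9 of the 11 tested genes, and capitals mark matches, on either strand, to the GC box (GGGCGG) or to the Egr motif (GCGNGGGCG). The windows lie at chr3:89322890-89323189 (minus strand) for *Efna3*, chr17:62881268-62881567 (minus strand) for *Efna5* and chr4:28812881-28813180 (plus strand) for *Epha7*.
Efna3: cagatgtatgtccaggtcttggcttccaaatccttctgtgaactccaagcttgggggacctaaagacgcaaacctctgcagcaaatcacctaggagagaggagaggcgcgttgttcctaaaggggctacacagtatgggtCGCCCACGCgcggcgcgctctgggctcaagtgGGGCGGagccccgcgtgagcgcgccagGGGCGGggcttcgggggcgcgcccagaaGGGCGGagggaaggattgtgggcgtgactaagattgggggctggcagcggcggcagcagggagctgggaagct
Efna5: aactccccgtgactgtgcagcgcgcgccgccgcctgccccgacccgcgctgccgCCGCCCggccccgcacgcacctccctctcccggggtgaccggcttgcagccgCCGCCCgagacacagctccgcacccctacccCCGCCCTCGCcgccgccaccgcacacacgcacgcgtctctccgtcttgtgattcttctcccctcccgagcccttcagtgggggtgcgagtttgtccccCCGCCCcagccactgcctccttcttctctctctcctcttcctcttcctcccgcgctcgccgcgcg
Epha7: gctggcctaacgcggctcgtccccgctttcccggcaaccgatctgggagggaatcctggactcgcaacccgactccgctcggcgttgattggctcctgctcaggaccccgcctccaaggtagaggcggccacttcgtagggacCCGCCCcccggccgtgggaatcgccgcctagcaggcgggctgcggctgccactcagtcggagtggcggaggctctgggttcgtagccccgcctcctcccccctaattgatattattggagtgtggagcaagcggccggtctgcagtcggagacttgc

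The GC content of these windows was 64% for *Efna3*, 73.3% for *Efna5* and 67% for *Epha7*, above the median of 52.7% over 32851 promoter windows of the same length. The GC box was present 3 times in *Efna3*, 4 times in *Efna5* and 1 time in *Epha7*, and 35.7% of all windows hold at least 1. Among the uncalled genes, *Unc5b* held it 3 times and *Epha5*, *Neo1* and *Efna2* 2 times each, while the first windows of *Robo1* and *Robo2* lacked it. Their GC content was 69.7, 64.3, 82.7, 74.7, 57 and 53.3%, in the same order. The Egr motif was present in the first windows of both genes that fell, where it started 110 bases before the start site in *Efna3* and 112 bases before it in *Efna5*, overlapping a GC box in the latter. It was absent from a second *Efna3* window at chr3:89321719-89322018 and from the windows of *Epha7*, *Efna2*, *Neo1*, *Epha5*, *Robo1* and *Robo2*. It was present in that of *Unc5b* and in 5.55% of all windows, which were not matched for GC content. The letters of the cyclic AMP response element (TGACGTCA), of its core (TGACG), and of the AP-1 (TGANTCA), EBF and homeodomain (TAATTA) motifs were not in any of the 3 windows shown, while 1.79, 20.8, 7.81, 0.904 and 5.29% of all windows hold them. Such a match is a run of letters and was not tested for binding.

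**Figure D2:**
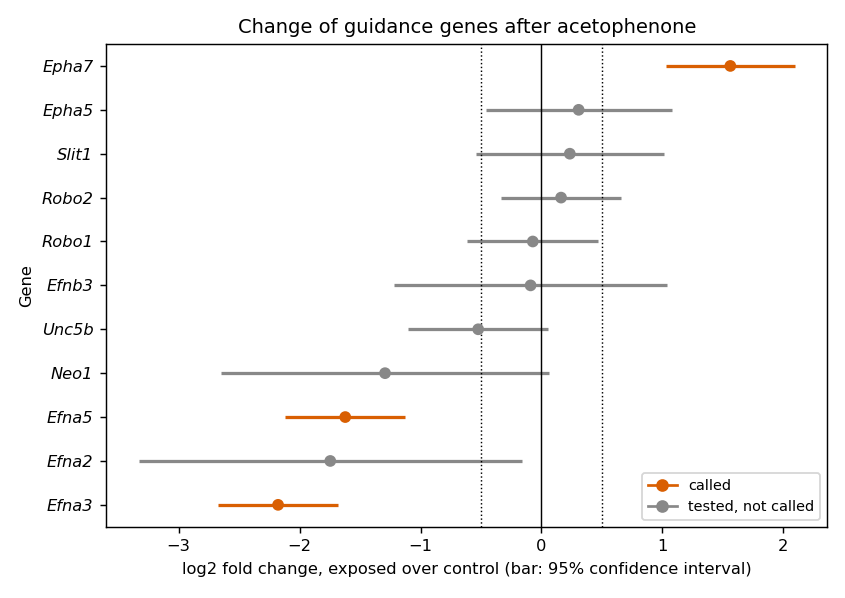
Log2 fold change of the 11 tested guidance genes, exposed over control, with the 95% confidence interval of the edgeR fit. Orange genes were called and grey ones were not, and dotted lines mark the fold change threshold of 0.5. The intervals of *Efna3* and *Efna5* lie below 0 and that of *Epha7* above 0 without touching the dotted lines, whereas that of *Efna2* excludes 0 but spans -3.33 to -0.16.

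Among the genes not called, the 3 with the smallest unadjusted p-values were *Efna2*, *Neo1* and *Unc5b*. *Efna2*, which encodes ephrin-A2, had 167, 376 and 149 counts in controls against 49 and 74 in exposed neurons, all exposed below all controls, and a log2 fold change of -1.75 (SE 0.67, p-value 0.035, edgeR quasi-likelihood adjusted p-value 0.225). The netrin receptor *Neo1*, for neogenin, had 54.6, 110.5 and 31.3 CPM in controls against 20.6 and 32.8 CPM, with exposed pool 3 above control pool 3, and a log2 fold change of -1.29 (SE 0.56, edgeR quasi-likelihood adjusted p-value 0.279). Its control values spread widely, control pool 2 being the highest, and without that pool the log2 fold change was -0.69.

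*Unc5b*, a netrin receptor of the repulsive class, had 90.2, 113 and 103 CPM in controls against 56.1 and 85.9 CPM. Both exposed values were below every control, but the log2 fold change of -0.52 (SE 0.24, interval -1.10 to 0.056) was not called by edgeR's quasi-likelihood test (adjusted p-value 0.304). It was -0.25 without exposed pool 1 and -0.86 without exposed pool 3.

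The Slit-Robo genes kept overlapping values. *Robo2* had 140.1, 195 and 173 CPM in controls against 161 and 218 CPM (log2 fold change 0.16, interval -0.33 to 0.66, edgeR quasi-likelihood adjusted p-value 0.718). *Robo1* had 44.1, 44.5 and 49.6 CPM against 46.4 and 41.2 CPM (log2 fold change -0.072, interval -0.61 to 0.47, adjusted p-value 0.901). The ligand *Slit1* had 36.6, 69.4 and 54.7 CPM against 74.6 and 51.5 CPM (log2 fold change 0.23, interval -0.54 to 1.01, adjusted p-value 0.740). For none of the 3 did the libraries separate by condition. The B-class ephrin *Efnb3* likewise overlapped, with 26.7, 12.4 and 26.3 CPM against 27.4 and 13.6 CPM (log2 fold change -0.09, interval -1.22 to 1.04, edgeR quasi-likelihood adjusted p-value 0.944).

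Levels were compared between genes after division by exon length, as TPM, the share of a gene among all length-scaled counts of a library. In controls, *Efna3* was the highest guidance gene with 588 ± 117 TPM (SD, n = 3), a level that 97.95% of the tested genes do not reach. It was followed by *Efna5* (79.0 ± 8.48 TPM), *Unc5b* (56.3 ± 9.56), *Epha5* (41.3 ± 12.6), *Epha7* (36.2 ± 3.30), *Robo2* (34.5 ± 7.56), *Slit1* (31.5 ± 11.3), *Neo1* (26.2 ± 17.6), *Efnb3* (23.3 ± 7.96) and *Robo1* (9.60 ± 0.923). From *Unc5b* down to *Efnb3* each gene overlaps its neighbour within these SDs. In exposed neurons *Efna3* had 116 ± 25.5 TPM (SD, n = 2) and *Epha7* 96.4 ± 32.0 TPM, and their ranges overlap. Within each exposed pool *Efna3* was the higher, at 97.5 against 73.8 TPM in pool 1 and 134 against 119 TPM in pool 3. In rank among the 10035 tested genes, *Efna3* went from 206 to 1268, *Efna5* from 2117 to 4845 and *Epha7* from 3980 to 1535.

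**Figure D3:**
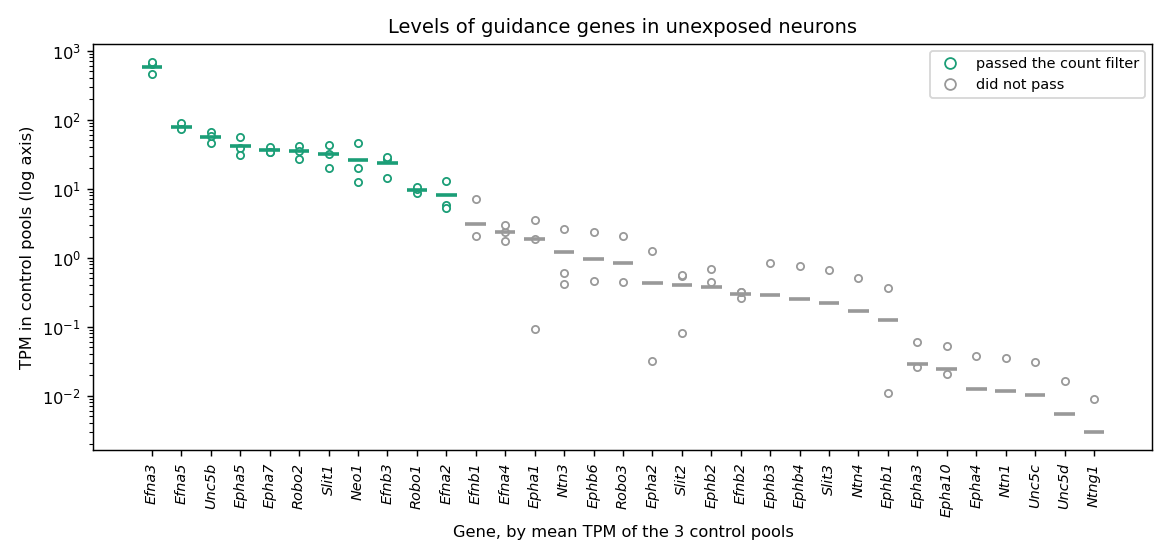
TPM of guidance genes in the 3 control pools, on a log axis, ordered by mean. Points are single pools, bars are means, green genes passed the count filter and grey ones did not, and pools at 0 are not drawn. *Efna3* stands at 588 TPM on average, followed by *Efna5* at 79.0.

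By family, the summed level of the A-class ephrins was 538, 739 and 755 TPM in controls and 123 and 162 TPM in exposed neurons, of which *Efna3* made 84.5, 85.9 and 89.3% and 79.3 and 82.4%. The EphA receptors went from 81.7, 89.5 and 68.2 TPM to 105 and 182 TPM, and *Epha7* made 49.0, 38.2 and 50.6% of them in controls and 70.4 and 65.4% in exposed neurons. The ratio of summed ephrin-A to summed EphA TPM was therefore 6.58, 8.26 and 11.1 in controls and 1.17 and 0.892 in exposed neurons, with no overlap. This ratio rests on the genes called above and was not tested separately.

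None of the tested genes of the remaining families was called. Robo receptors summed to 37.2, 51.8 and 45.8 TPM in controls against 36.6 and 48.3, mostly through *Robo2*. Slits summed to 20.0, 43.8 and 32.6 against 37.7 and 27.7 TPM, with *Slit1* at 97.2% or more in every library. B-class ephrins (27.3, 16.5 and 36.1 against 31.8 and 16.9 TPM), EphB receptors (at most 3.25 TPM) and netrins (at most 2.63 TPM) included 1 family without overlap, the netrins, whose exposed values of 0.509 and 0.0722 TPM lay below the lowest control of 0.639. Their top gene *Ntn3* did overlap, at 2.62, 0.604 and 0.411 TPM in controls against 0.461 and 0. In control pool 3 the netrin sum included 0.502 TPM from 25 counts of *Ntn4*. The netrin receptors, at 66.6, 112 and 69.5 TPM in controls against 34.1 and 55.7, also did not overlap, and neither of their tested members was called.

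**Figure D4:**
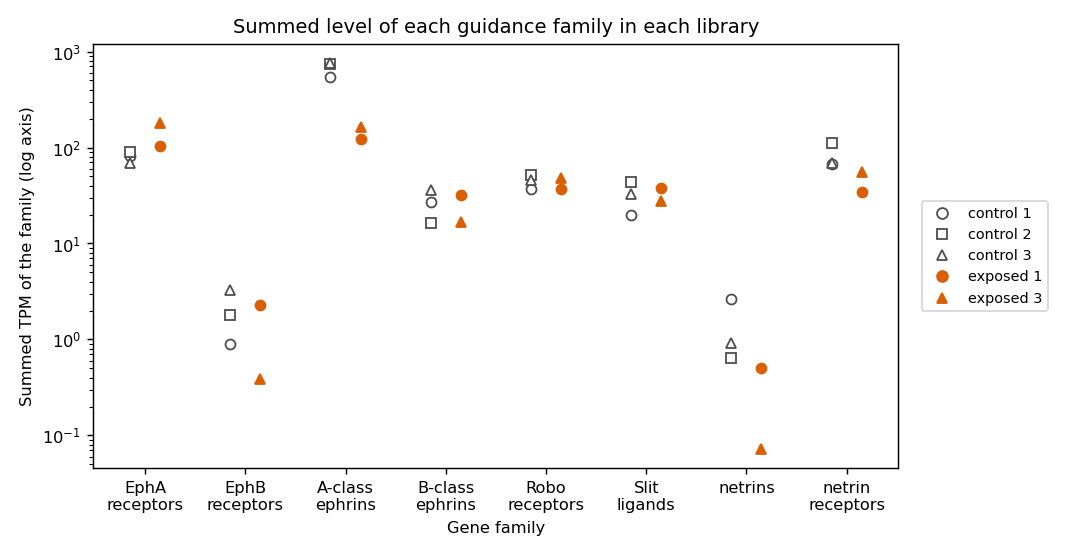
Summed TPM of the 8 guidance families in each library, on a log axis, for control pools (open grey) and exposed pools (filled orange). The A-class ephrins fall from between 538 and 755 TPM to 123 and 162 TPM, the EphA receptors reach 105 and 182 TPM, and the netrins stay below 3 TPM in every library.

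Of the 30 genes without a test, 6 had no count in any library (*Epha6*, *Epha8*, *Ntn5*, *Ntng2*, *Robo4* and *Unc5a*) and 3 never exceeded 3 counts (*Efna1*, *Ntng1* and *Unc5d*). The other 21 were above 3 counts in some library, 18 of them with 0 in another, and their highest count was 326, for *Efnb1*. The following examples were chosen after their values were seen. *Epha1*, a receptor, had 188, 5 and 97 counts in controls against 0 and 1 in exposed neurons, and *Robo3* had 187, 41 and 0 against 0 and 0. *Unc5c* showed the opposite, with 0, 8 and 0 counts in controls against 130 and 45, while *Dcc* had 67 counts in exposed pool 3 and 0 elsewhere. In a fit without the count filter none of the 24 with a count was called by edgeR, where 1.57% of all 26883 genes were called. The smallest unadjusted p-values were 0.0200 for *Epha1* and 0.0334 for *Robo3* (adjusted 0.376 and 0.475, edgeR quasi-likelihood test).

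Since the 3 genes *Efna4*, *Efna3* and *Efna1* neighbour each other, the surroundings of *Efna3* were examined, also after the values were known. *Efna4* ends 10425 bases upstream of *Efna3* and had 38, 51 and 63 counts in controls against 32 and 56, too few for the test. *Efna1*, 32757 bases downstream, had at most 1 count. *Slc50a1* beyond it had 1242, 944 and 1414 counts against 601 and 496 (log2 fold change -1.01, edgeR quasi-likelihood adjusted p-value 0.190), so its exposed libraries were also below every control. *Adam15* on the other side had 542, 1756 and 2437 counts against 1945 and 1431 (0.25, adjusted p-value 0.853). Of the 3 tested genes among these 5 on 1 strand, *Efna3* was called and *Slc50a1* and *Adam15* were not. Of its 2434 exon bases, 344 (14.1%) are shared with the antisense gene *Gm15998*, and reads there are not assigned by the counting, which used no strand. *Gm15998* itself had at most 6 counts.

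**Figure D5:**
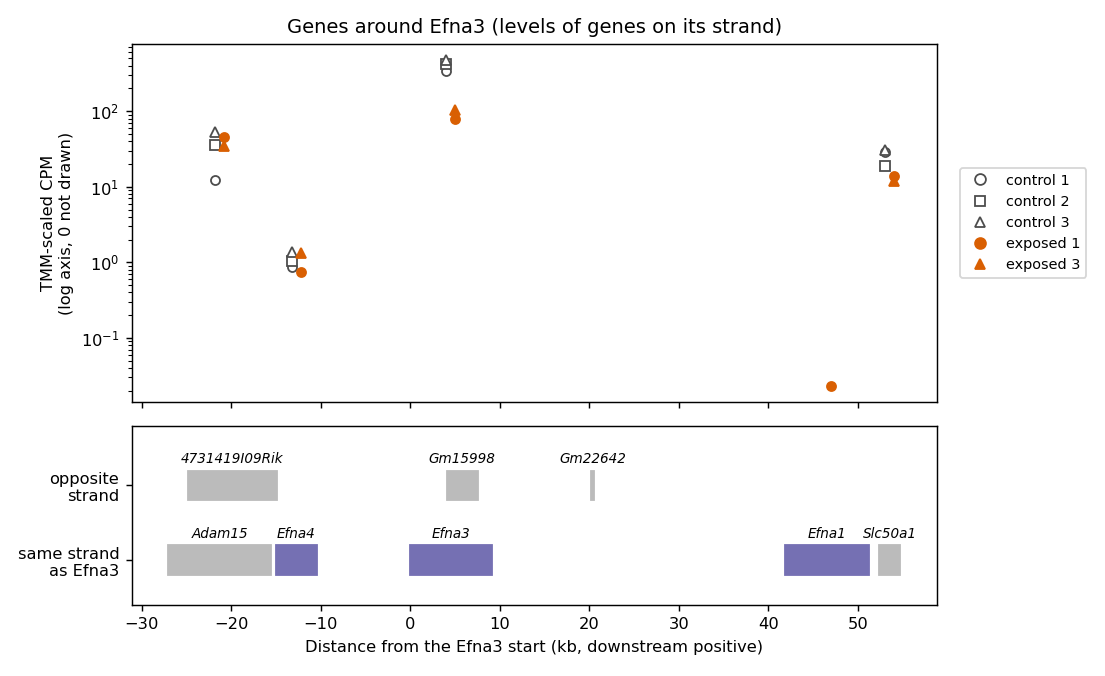
Genes around *Efna3*. The upper panel gives the TMM-scaled CPM of genes on its strand (log axis, pools at 0 not drawn) for controls (open grey) and exposed pools (filled orange), and the lower panel their position in kb from the *Efna3* start. *Efna3* lies at 343 to 473 CPM in controls and at 79.9 and 103 in exposed pools, *Efna4* and *Adam15* overlap between the conditions, and *Slc50a1* was below all controls without being called.

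Beyond the ligands and receptors, 98 other genes of these pathways were listed, with 76 tested. Of these, 5 were called higher (6.58%) and 2 lower (2.63%), beside 3.41 and 1.85% of all tested genes, with a median log2 fold change of -0.12. With spike-in scaling 0 were called higher and 1 lower, beside 93 and 48 of all genes. With a block for pool number 0 and 0 were called, beside 11 and 1 of all genes. Among 20 tested of 28 partners of Eph and ephrin signalling, *Inppl1* and *Sdcbp* rose. *Sdcbp* encodes syntenin, a scaffold that binds B-class ephrins, and had 42542, 40476 and 38283 counts in controls against 87679 and 74614 (log2 fold change 1.13, SE 0.13, edgeR quasi-likelihood adjusted p-value 0.00952). *Inppl1*, a phosphatase that binds an EphA receptor, had 85, 345 and 421 counts against 1964 and 1599 (2.80, SE 0.61, adjusted p-value 0.0714). It passed the count filter only through its exposed libraries.

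Among 20 tested of 26 Slit-Robo partners, *Pak3* and *Ndfip1* rose and *Sdc3* fell. *Pak3*, a kinase downstream of Rac, had 6255, 7733 and 7773 counts against 13469 and 14149 (log2 fold change 1.06, SE 0.14, edgeR quasi-likelihood adjusted p-value 0.0155). *Ndfip1*, an adaptor of ubiquitin ligases, had 63328, 63053 and 62129 counts against 102761 and 81298 (0.68, SE 0.13, adjusted p-value 0.0516). *Sdc3*, a heparan sulfate proteoglycan, had 57212, 71862 and 14889 counts against 4782 and 6675 (-2.93, SE 0.67, adjusted p-value 0.0911), with control pool 3 between the other controls and the exposed libraries.

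Among 18 tested of 26 netrin partners, *Gap43* rose and *Flrt1* fell. *Gap43*, a growth cone protein that is also on the list of immature neuron markers, had 4624, 3936 and 4787 counts against 9404 and 6329 (log2 fold change 0.94, SE 0.22, edgeR quasi-likelihood adjusted p-value 0.0891). *Flrt1*, from a family of Unc5 ligands, had 17779, 16986 and 12293 counts against 7552 and 7817 (-0.90, SE 0.21, adjusted p-value 0.0774). Of the 7 called pathway genes, *Sdcbp* and *Pak3* were also under an adjusted p-value of 0.05.

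The sorted neurons were checked against markers. *Olfr151* had 139703, 150234 and 166294 counts in controls against 103864 and 97297, with a log2 fold change of -0.47 that was not called (edgeR quasi-likelihood adjusted p-value 0.101). All 12 mature neuron markers were tested, and their summed level was 88508, 99008 and 97722 TPM in controls against 78384 and 79786, with *Stoml3* the most abundant. Of them edgeR called 4 lower, *Cnga2* (log2 fold change -0.83), *Cnga4* (-0.53), *Cngb1* (-0.91) and *Rtp1* (-1.07). The 8 it did not call were *Adcy3* (-0.59), *Rtp2* (-0.36), *Omp* (-0.32), *Gnal* (-0.17), *Ano2* (-0.011), *Gng13* (-0.0015), *Stoml3* (0.088) and *Gfy* (0.31). DESeq2 called 3 of the 12. The median of the 12 was -0.34, and 7 had an unadjusted p-value under 0.05, among them *Gfy*, which was higher. Beyond the top gene of each list, the markers named here were chosen after their values were seen. Among 10 immature neuron markers, led by *Stmn2*, *Gap43* and *Nhlh1* (2.47) were called higher, *Nhlh1* having passed the count filter only through its exposed libraries. Of the 10, 6 had an unadjusted p-value under 0.05, among them *Crmp1*, which was lower. The 8 not called by edgeR were *Dpysl3* (1.31), *Stmn1* (1.21), *Gng8* (1.13), *Nhlh2* (0.44), *Stmn2* (0.19), *Dbn1* (-0.091), *Hdac2* (-0.31) and *Crmp1* (-0.54), and the median log2 fold change of the list was 0.69. DESeq2 called 4 of the 10. The sums were 793, 771 and 858 against 1094 and 906 TPM. Whether these shifts take part in the change of *Efna3*, *Efna5* and *Epha7* was not tested.

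Markers of other cells were low beside those of mature neurons. Myeloid markers, led by *Lyz2*, summed to 479.9, 75.8 and 48.7 TPM in controls and 486 and 216 TPM in exposed pools, with 5 of 12 tested and *Fcer1g*, which passed the count filter only through its exposed libraries, called higher by edgeR. DESeq2 called 2 of the 5, and 2 had an unadjusted p-value under 0.05. The other tested genes, *Ptprc* (log2 fold change 5.05), *Tyrobp* (1.98), *Ctss* (1.05) and *Lyz2* (0.26), were not called by edgeR, and of them *Lyz2* alone passed the filter through its control libraries. All 7 untested genes were highest in control pool 1. *C1qb* had 602, 76 and 0 counts against 71 and 19, *C1qc* 628, 0 and 81 against 73 and 0, and *Cx3cr1* 309, 10 and 0 against 6 and 0. In the others exposed pool 1 was the next highest. *Csf1r* had 866, 0 and 0 counts against 788 and 66, and *C1qa* 506, 101 and 0 against 363 and 37. *Cd68* had 214, 16 and 2 against 177 and 68, and *Aif1* 172, 22 and 13 against 71 and 3. The part of these cells in the results on guidance genes was not tested. Sustentacular markers, led by *Cbr2*, summed to 505, 432 and 187 against 627 and 234 TPM, with 0 of 5 tested called by edgeR or DESeq2 and 0 at an unadjusted p-value under 0.05. The lists for basal cells, ensheathing glia, endothelium and fibroblasts were led by *Icam1*, *Apod*, *Pecam1* and *Col1a1*. Each of the 4 had 1 gene tested (*Pdgfrb* and not *Col1a1* for fibroblasts), which neither edgeR nor DESeq2 called (1 of the 4, *Apod*, had an unadjusted p-value under 0.05), and summed to at most 53.2 TPM in any library. Of the 10 endothelial genes, 5 (*Cdh5*, *Kdr*, *Tek*, *Emcn* and *Flt1*) were at 0 in all libraries. *Pecam1* was found in every library, at 3.67, 1.71 and 4.00 TPM in controls against 2.56 and 2.76.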

How the data were processed

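The authors mapped single reads of 50 bases with STAR 2.7.0a to GRCm38 and counted reads on exons with featureCounts 1.6.3, without strand, multi-mapping or ambiguous reads. The deposited values are raw counts per gene and library, and per the submitters' processing notes DESeq2 1.30.1 and R 4.0.3 followed. Here, edgeR 4.0.16 in R 4.3.3 was used for the tests (TMM scaling, robust glmQLFit, glmQLFTest), condition being the only term and all 5 libraries being fitted. Genes needed 142 counts in every library of 1 condition, the deepest local minimum of the count density. SEs are the log2 fold change divided by the root of the F statistic. TPM used the exon lengths in the tables. Of 55411 gene IDs, 55144 were named through GENCODE M21. Spike-in rows were left out of library sizes. Intervals cover what the fit estimates, and amplified reads carry no molecular identifiers.

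The guidance genes and all lists were chosen with earlier results of these data known. Named genes are the called guidance genes, the 10 highest in controls, *Robo2*, *Slit1*, *Epha5* and *Efna5*, the 3 uncalled with the smallest p-values, called pathway genes, those at 3 counts or fewer and the top gene of each marker list. The results of 1 list of pathway genes are not reported gene by gene here. Of its 18 tested genes edgeR called 0 and DESeq2 called 5. The procedure was tested on simulated data. Alternatives were DESeq2 1.42.0 with apeglm 1.24.0, its size factors, spike-in scaling, glmTreat, no robust estimation, an adjusted p-value of 0.05, 3 other count filters, a block for pool number and each library left out. Motifs were searched in Python 3.11.15. Pools come from separate groups of mice, but the labels do not tie pool numbers to days.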

Additional observations from a re-analysis of the deposited data

How the results depend on the processing

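In all 15 alternatives *Efna3* and *Efna5* kept a negative and *Epha7* a positive log2 fold change (-2.39 to -2.01, -1.84 to -1.56 and 1.23 to 1.83), and they were called in 14, 12 and 13 of them. Among these, glmTreat, no robust estimation and the adjusted p-value of 0.05 repeated the log2 fold changes of the main fit, so they are no separate check on sign. With spike-in scaling 0 guidance genes were called higher and 0 lower, their median was -0.31 and that of all genes -0.23, and 93 of all genes were called higher and 48 lower, with 0 and 1 pathway genes. The replicate block by pool number left 0 higher and 1 lower (*Efna3*, edgeR quasi-likelihood adjusted p-value 0.0994), a median of -0.46, 11 and 1 of all genes and 0 and 0 pathway genes. In that fit control pool 2 had no exposed library of its number, so it added nothing to the difference between conditions. Less was then left to estimate the spread between pools. With the block, the log2 fold change of *Epha7* was 1.46 and that of *Efna5* -1.57. The labels do not say that pool numbers pair the libraries, and deviations of same-numbered pools had r of 0.0485 and -0.077, on 2 exposed pools whose deviations mirror each other.

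Calls among all genes were, higher and lower, 671 and 715 with DESeq2 and apeglm, 146 and 55 with glmTreat, 190 and 91 at an adjusted p-value under 0.05, and 162 and 74 with filterByExpr. Pathway calls were 11 and 6, 2 and 0, 2 and 0, and 2 and 0 in these, 3 and 0 with at least 10 counts, and 5 and 1 with no filter.

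With each library left out in turn, calls among all genes ranged from 71 to 346 higher and from 19 to 407 lower, with the low ends without exposed pool 1 and the high ends without control pool 3. Pathway calls ranged from 0 to 5 and from 0 to 8, guidance genes called higher stayed at 1, those called lower ranged from 1 to 2, and their median from -0.37 to -0.0066. Of the 10 highest guidance genes in controls, 9 to 10 stayed.

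Uncalled genes changed sign with spike-in scaling, *Robo2* (-0.056) and *Slit1* (-0.17). With libraries left out, the ranges that crossed 0 were -0.071 to 0.36 for *Robo2*, -0.058 to 0.48 for *Slit1*, -0.19 to 0.68 for *Epha5*, -0.68 to 0.33 for *Efnb3*, which was also positive without control pool 1 (0.08) or 3 (0.07), and -0.16 to 0.013 for *Robo1*. The cause of these differences was not tested. With 2 exposed pools, the spread in that condition rests on 1 difference per gene.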
